A study of Mus musculus with 24 samples.

Results

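The genes described here are 9 that define macrophages, namely Csf1r, Spi1, Cebpa, Cebpb, Emr1, Itgam, Mertk, Cd68 and Lyz2, out of 23420 gene symbols counted in 24 mouse RNA-seq libraries. They were picked by symbol, as known macrophage genes and with earlier results of these data known, and no threshold on a measured value was used. All 9 were found, with Spi1 listed under its older symbol Sfpi1, and Emr1 is the older symbol of Adgre1. The values are raw read counts per gene that the authors made from polyadenylated RNA, here divided by a size factor per library to give a normalised count.

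Bone marrow-derived macrophages (BMDMs) came from 2 mouse cohorts on the C57BL/6 background. In one, floxed Tdg was deleted (TDG iKO), and in the other floxed Tet1, Tet2 and Tet3 were deleted together (TET iTKO), each beside wild-type (WT) controls of its own cohort. Deletion used CreERT2, a Cre recombinase that tamoxifen activates, expressed from a ubiquitin C promoter and therefore not restricted to myeloid cells, and the Cre-carrying and the control mice alike were injected with tamoxifen as young adults. The macrophages were grown from bone marrow with macrophage colony-stimulating factor and were left unstimulated (0 h) or stimulated for 6 h with Kdo2-lipid A (KLA), a lipopolysaccharide component that activates Toll-like receptor 4. Each of the 8 BMDM groups had 2 libraries. Th2 cells, helper T cells derived in culture from naive CD4 T cells, had 4 libraries of WT and 4 of TDG iKO and served as cells that should lack the macrophage genes.

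Macrophage identity is set by a small network of transcription factors. PU.1, encoded by Spi1, binds myeloid enhancers and works with the C/EBP factors, and one of its targets is Csf1r, the receptor through which macrophage colony-stimulating factor keeps the cells alive. Toll-like receptor signalling changes this programme, and C/EBPβ is known as one of the factors it induces. TET proteins oxidise 5-methylcytosine, and TDG excises the more oxidised bases so that an unmethylated cytosine can be put back.

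Promoters are shown first for 5 of the genes, because Cebpa, Mertk, Cd68 and Lyz2 were the members lower in TET iTKO at both times and Cebpb was the member with the largest increase after KLA in the Tet cohort. Each is the 250 bases before the transcription start, from RefSeq on the build GRCm38.p6, written 5′ to 3′ on the strand of the gene. Capitals mark matches to the searched motifs. Cebpa, chr7:35119043-35119292 on the plus strand, has a TATA box 30 to 25 bases before its start.
Cebpa: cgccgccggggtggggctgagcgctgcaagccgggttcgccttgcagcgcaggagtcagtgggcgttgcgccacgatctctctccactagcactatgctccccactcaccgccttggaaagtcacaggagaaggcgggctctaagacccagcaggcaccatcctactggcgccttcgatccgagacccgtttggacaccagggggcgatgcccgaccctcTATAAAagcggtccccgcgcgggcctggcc
Cebpb, chr2:167688665-167688914 on the plus strand, held none of the motifs in the bases printed.
Cebpb: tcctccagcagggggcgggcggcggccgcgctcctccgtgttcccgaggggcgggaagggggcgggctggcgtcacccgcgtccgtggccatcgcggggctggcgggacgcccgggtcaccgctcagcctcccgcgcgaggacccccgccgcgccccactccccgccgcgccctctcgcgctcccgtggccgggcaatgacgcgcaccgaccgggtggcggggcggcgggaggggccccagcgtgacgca
Mertk, chr2:128698665-128698914 on the plus strand, held none.
Mertk: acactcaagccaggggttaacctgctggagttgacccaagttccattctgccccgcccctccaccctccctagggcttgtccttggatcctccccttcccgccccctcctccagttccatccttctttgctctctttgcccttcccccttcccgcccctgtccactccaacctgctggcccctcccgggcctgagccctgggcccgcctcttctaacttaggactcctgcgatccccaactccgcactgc
Cd68, chr11:69666171-69666420 on the minus strand, has a C/EBP motif and 2 AP-1 motifs.
Cd68: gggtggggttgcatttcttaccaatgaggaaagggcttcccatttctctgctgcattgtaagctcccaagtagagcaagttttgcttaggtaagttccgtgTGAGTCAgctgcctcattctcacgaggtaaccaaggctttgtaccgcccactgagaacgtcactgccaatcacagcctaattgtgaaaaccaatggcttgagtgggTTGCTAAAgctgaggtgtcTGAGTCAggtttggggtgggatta
Lyz2, chr10:117282273-117282522 on the minus strand, has a PU.1 motif on the opposite strand.
Lyz2: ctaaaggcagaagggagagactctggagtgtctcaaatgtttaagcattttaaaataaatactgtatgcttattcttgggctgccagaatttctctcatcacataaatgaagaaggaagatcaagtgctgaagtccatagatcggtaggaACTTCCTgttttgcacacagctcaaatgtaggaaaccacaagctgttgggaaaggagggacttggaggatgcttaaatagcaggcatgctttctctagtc

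The motifs were PU.1 AGGAAGT, C/EBP TTGCNNAA, AP-1 TGANTCA and the TATA box TATAAA, searched on both strands in the window from 250 bases before to 50 after the start. In that window Cebpb had a TATA box match at bases 22 to 27 after its start, outside the bases printed. Among all 32851 promoters of the same length, 9.35% held the PU.1 motif, 10.8% the C/EBP motif, 7.81% the AP-1 motif and 13.6% the TATA box. The promoters differed widely in CpG dinucleotides, the substrate of DNA methylation. Over the window the number was 50 for Cebpb, 29 for Cebpa, 14 for Mertk, 6 for Itgam, 4 for Cd68 and 1 for Lyz2, against a median of 7 over all promoters. Of the 4 members lower in TET iTKO at both times, Cebpa and Mertk thus lay above that median and Cd68 and Lyz2 below it. Promoters of Spi1, Csf1r and Emr1 are not analysed here.

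Library depth was 4982950 to 19405606 assigned counts in the Tdg cohort of BMDMs, 13145625 to 21503302 in the Tet cohort and 7641848 to 26657729 in Th2 cells. Gene counts did not check the deletions. The paper measured them by quantitative RT-PCR of the floxed exons in Th2 cells, and it also quantified the targeted transcripts in BMDMs. Tdg had at most 7 counts in any library, WT included, so its row says little about its expression. In TET iTKO the normalised counts of Tet2 at 0 h were 702 to 737, no lower than the 506 to 603 of WT. A count over a whole gene can stay up when an exon is removed. Nothing states that replicates came from separate animals or cultures, so p-values measure the spread between these libraries, which may be technical.

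The shallowest library stood apart from its replicate. It was WT replicate 2 of the Tdg cohort at 0 h, and between the 2 libraries of that group the SD of the log2 ratio over genes was 0.885, against 0.286 in the matching group of the Tet cohort. The ratio was correlated with exon length across genes (Spearman −0.36, over 9103 genes that are not independent), and among the 9 members the 2 libraries differed by up to 4.08-fold. A correlation with length was not particular to this group. It was 0.29 in TDG iKO at 0 h and -0.21 in TET iTKO at 6 h, with a sign set by replicate order. Results of the Tdg cohort at 0 h are therefore given with and without each WT library. In Th2 cells, replicates 3 and 4 of each genotype agreed nearly to sampling noise (mean chi-square per gene 1.34 for the TDG iKO pair and 1.51 for the WT pair, where other pairs had 21.3 to 218) and were counted as 1 sample in means. The tests kept them apart. With the 2 libraries summed, all 9 members were still called between Th2 cells and BMDMs and 0 between the Th2 genotypes, where Csf1r, Mertk, Spi1, Cebpa and Lyz2 had few or no counts.

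The 9 genes together made up 2.08% to 2.8% of assigned counts in the 16 BMDM libraries and 0.00311% to 0.00823% in the 8 Th2 libraries. Most of the share in BMDMs was Lyz2, which alone made up 1.2% to 1.91%. All 9 were lower in WT Th2 cells than in WT unstimulated BMDMs by DESeq2's Wald test (Benjamini-Hochberg adjusted p under 0.05) and by the quasi-likelihood test of edgeR. Of all genes tested, 58.7% were called and 27.3% were called lower in Th2 cells, and edgeR called 62.4%. The gap ranged over orders of magnitude. By their counts in Th2 cells, the genes fell into those with none, those with a few, and those counted in every Th2 library.

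**Figure D1:**
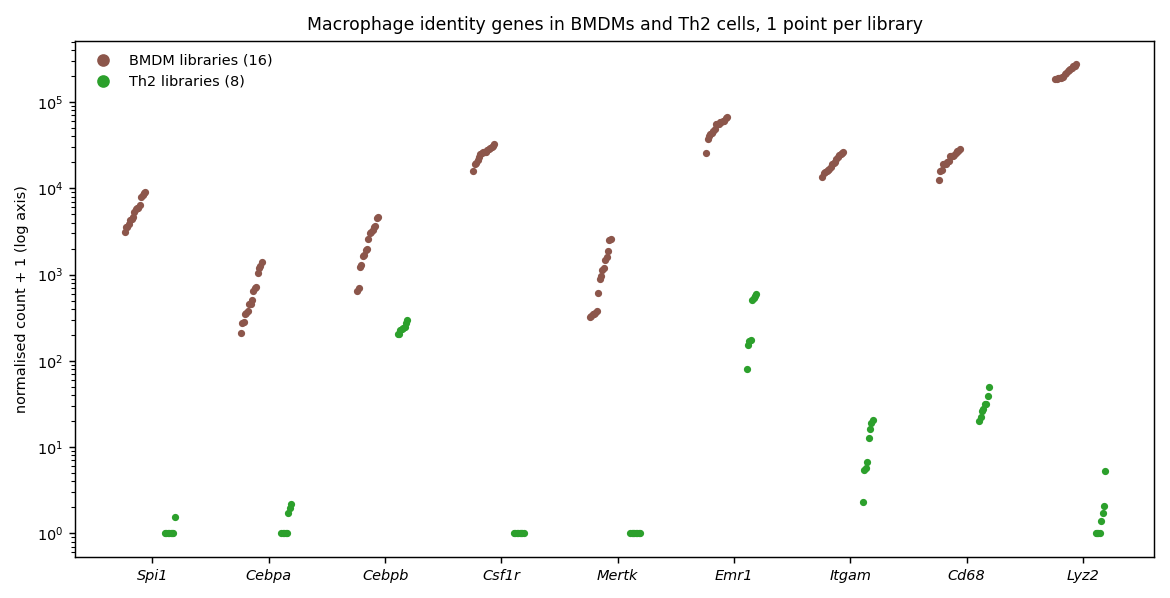
Normalised count plus 1 (log axis) of each macrophage identity gene in the 16 BMDM libraries and the 8 Th2 libraries, 1 point per library. The points of BMDMs and Th2 cells are separate for every gene, and the gap is smallest for Cebpb, where Th2 cells reached 299 and the lowest BMDM library was at 641.

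Csf1r and Mertk had 0 counts in all 8 Th2 libraries. Against a floor of 3 counts over the WT Th2 group, Csf1r was at least 40211-fold and Mertk at least 4049.6-fold higher in WT unstimulated BMDMs, and the lower limits of the exact 95% intervals, which allow for more counts than the floor, were 32701 and 3293. Spi1 had 1 count in all Th2 libraries together, Cebpa 5 and Lyz2 7. On counts summed over the WT libraries and scaled, Spi1 was 21966-fold higher in BMDMs (exact 95% interval 3942 to 867678), with 1 Th2 count behind the ratio. Cebpa was 2278-fold higher (779 to 11052), with 3. For Lyz2, which encodes the lysozyme M that macrophages secrete, the ratio was 243304 (111783 to 662988). These intervals cover counting error only.

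Itgam, Cd68, Emr1 and Cebpb were counted in every Th2 library. Itgam, the integrin αM chain of the complement receptor CR3, reached 50 counts and was 1189.6-fold higher in BMDMs (965 to 1483), and Cd68, a lysosomal glycoprotein, was 845-fold higher (731 to 981). Emr1, the F4/80 surface antigen, was at 171, 170.1, 590.2 and 570.4 in WT Th2 replicates 1 to 4 and at 153, 79.9, 539.9 and 512 in TDG iKO. Replicates 3 and 4 of both genotypes were thus several times higher than replicates 1 and 2. Emr1 was 86.1-fold higher in BMDMs (83 to 89.5) on the summed counts, to which replicates 3 and 4 contribute most. Cebpb, a C/EBP factor that many cell types use, was only 5.3-fold higher (4.99 to 5.63) and ranged from 206 to 299 in Th2 cells. Group means that count replicates 3 and 4 once gave ratios outside those intervals for Emr1, at 129, Itgam, at 2096, and Cebpb, at 5.72, and inside it for Cd68, at 964. Csf1r and Mertk could not be tested between TDG iKO and WT Th2 cells, and Spi1, Cebpa and Lyz2 had too few counts there to show a difference. None of Itgam, Cd68, Emr1 and Cebpb was called between the Th2 genotypes, where 0.0126% of genes were called by DESeq2 and 0 by edgeR. Without adjustment 219 and 140 genes had p under 0.05. For Cebpb the log2 fold change there was -0.037 (95% interval -0.37 to 0.29).

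T cell marker genes in turn were low in BMDMs. Cd2, Cd3d, Cd3e, Cd3g, Gata3 and Il4 had at most 5 counts in any BMDM library. Cd5 reached 13 counts, Cd28 30 and Lck 51, and Cd4, which myeloid cells can also express, reached a normalised count of 370.

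Among unstimulated WT BMDMs of both cohorts (n = 4), the levels per kilobase of exon gave the genes an order that the 2 cohorts share only in part. Lyz2 was highest at 186027 ± 12403 (SD) normalised counts per kb, and Cd68 followed at 20780 ± 1711. Emr1 was at 12249.6 ± 3739, Csf1r at 3881 ± 805 and Itgam at 2818 ± 897. Spi1 was at 1515 ± 349.6, Cebpb at 958 ± 554, Cebpa at 413 ± 109 and Mertk at 384 ± 251. The ranges of Csf1r and Itgam overlapped, as did those of Spi1 and Cebpb, Cebpb and Cebpa, and Cebpa and Mertk, while the other neighbours did not overlap. Part of this spread lay between the cohorts. In the Tet cohort Mertk, at 579 to 599.8 per kb, lay above Cebpa at 450.02 to 535, and Spi1, at 1167 to 1334, above Cebpb at 812 to 856. In the Tdg cohort Mertk, at 80.8 to 274.9, was instead no higher than the lowest value of Cebpa, which was at 275.4 to 391, and Spi1 and Cebpb overlapped. Lyz2, Cd68, Emr1, Csf1r and Itgam lay above the 3 transcription factors in these 4 libraries, and Mertk did not. Some of these rows hold bases that another gene can share. Exons of Cebpb overlap 312 bases of the antisense gene Tmem189 and exons of Csf1r overlap 871 bases of the antisense gene Hmgxb3, and 15.4% of the 50-base windows of Lyz2 also occur in its paralog Lyz1, so these values are uncertain to that extent.

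Over the 16 BMDM libraries Lyz2 varied least, by 1.48-fold from lowest to highest. Mertk varied most, by 8.1-fold, followed by Cebpb at 7.27-fold and Cebpa at 6.7-fold. In these bulk samples, fewer cells of a type and less RNA per cell cannot be told apart.

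**Figure D2:**
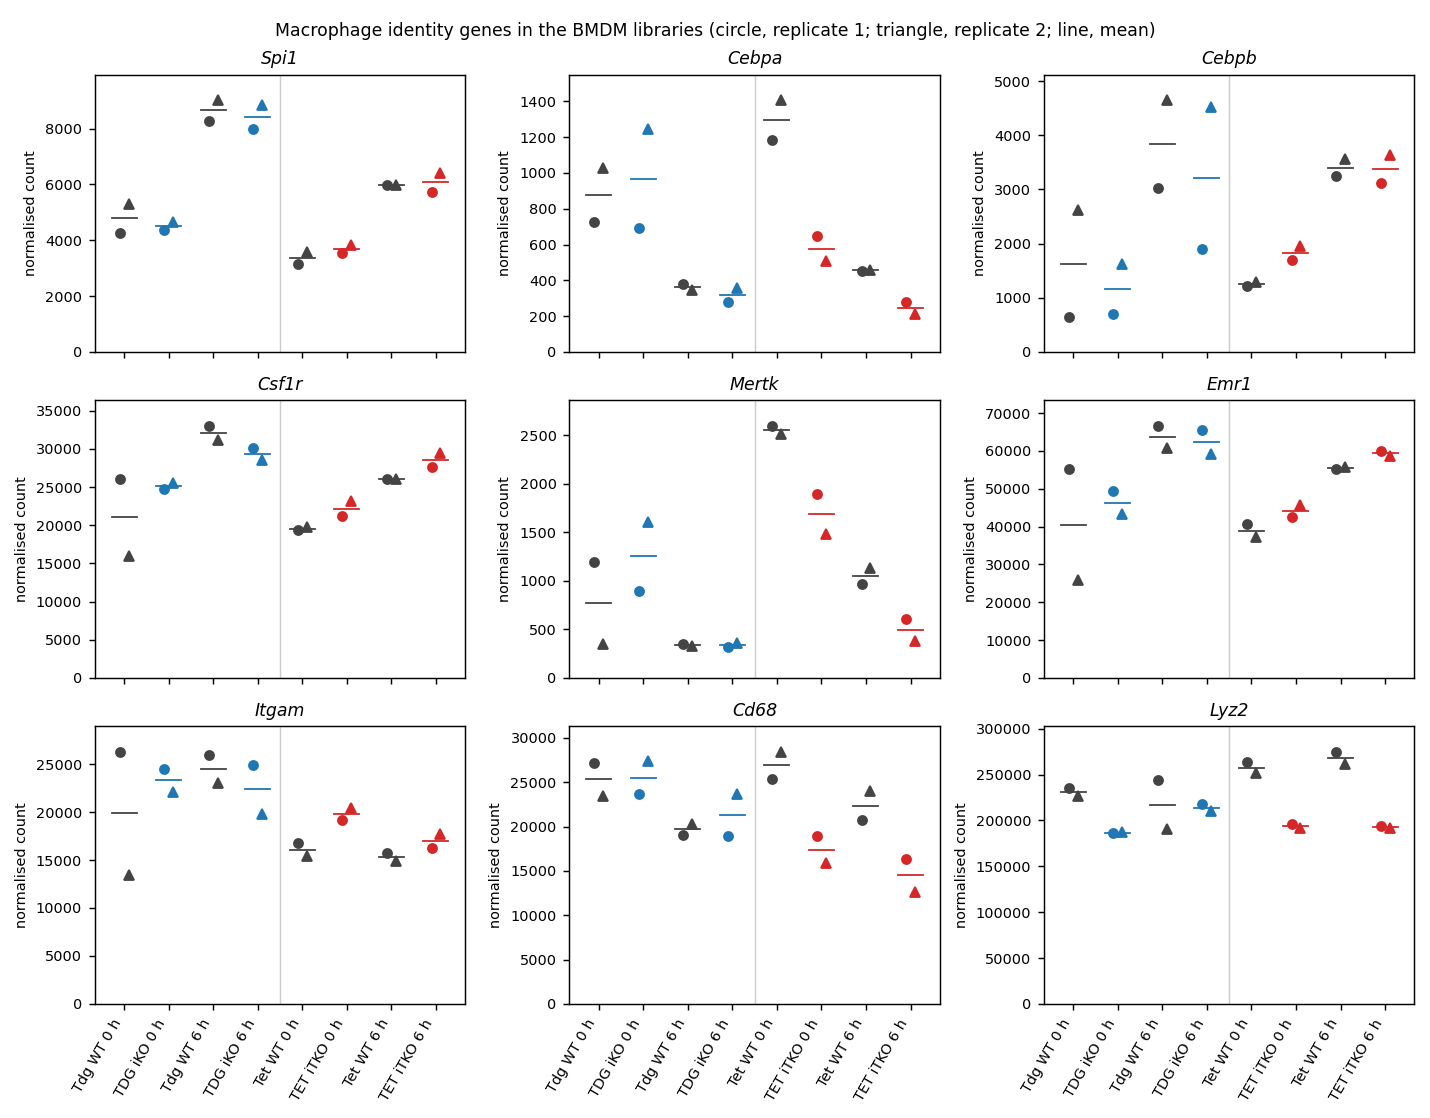
Normalised count (linear axis from 0) of each macrophage identity gene in the 8 BMDM groups. Circles are replicate 1, triangles replicate 2 and lines the mean of the 2, with WT in grey, TDG iKO in blue and TET iTKO in red. Spi1 and Cebpb were higher and Cebpa lower at 6 h in each cohort, and for Csf1r, Emr1, Itgam and Mertk the WT replicate 2 of the Tdg cohort at 0 h lies far below replicate 1.

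Stimulation with KLA moved the transcription factors apart. Spi1 and Cebpb were higher and Cebpa lower at 6 h than at 0 h in both cohorts and all genotypes. In the Tet cohort 6 members were called in WT and 6 in TET iTKO, where 24.1% and 24.4% of all genes tested were called. They were Spi1, Cebpb, Csf1r and Emr1, which rose, and Cebpa and Mertk, which fell, and edgeR called the same 6 in both (27.4% and 26.3% of all genes). In the Tdg cohort DESeq2 called 2 members in WT and 3 in TDG iKO, where 8.6% and 7.08% of genes were called, and edgeR called 0 of the members in either (3.71% and 3.11% of genes). Replicates spread more widely there, with an SD of the log2 ratio over genes of 0.483 to 0.885 against 0.283 to 0.34 in the Tet cohort.

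Spi1, the gene of PU.1, had normalised counts in the Tet cohort of 3145 and 3596 in WT at 0 h, 3551 and 3828 in TET iTKO at 0 h, 5974 and 5969.7 in WT at 6 h and 5742 and 6403 in TET iTKO at 6 h. The Tdg cohort gave 4275 and 5311 in WT at 0 h, 4379 and 4646 in TDG iKO at 0 h, 8281 and 9031 in WT at 6 h and 7979 and 8836 in TDG iKO at 6 h. Every 6 h library was above every 0 h library of its cohort. The log2 fold change was 0.83 ± 0.11 (SE) in WT and 0.72 ± 0.11 in TET iTKO (DESeq2 adjusted p 4.57e-13 and 6.72e-10). In the Tdg cohort it was 0.85 ± 0.26 in WT (adjusted p 0.0143, edgeR 0.0798) and 0.91 ± 0.26 in TDG iKO (0.00814, edgeR 0.0888). Leaving out WT replicate 1 or 2 at 6 h ended the WT call, with adjusted p 0.128 and 0.427, and in TDG iKO leaving out any of the 4 libraries did (0.0757 to 0.295). A group left with 1 library has no spread of its own in such a fit and is taken to vary like the other groups.

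Cebpa, the gene of the C/EBPα factor that directs myeloid precursors, moved the other way. Its normalised counts in the Tet cohort were 1185 and 1409 in WT at 0 h, 649.8 and 505 in TET iTKO at 0 h, 454 and 457 in WT at 6 h and 277 and 210.3 in TET iTKO at 6 h. Those of the Tdg cohort were 725 and 1029 in WT at 0 h, 690.2 and 1244 in TDG iKO at 0 h, 378 and 345 in WT at 6 h and 280.2 and 357 in TDG iKO at 6 h. All 6 h libraries were below the 0 h libraries of the same genotype. At 6 h it was at 0.353 of the 0 h level in WT and 0.421 in TET iTKO (log2 fold change -1.50 ± 0.18 and -1.25 ± 0.18, DESeq2 adjusted p 5.86e-16 and 2.22e-10). The Tdg cohort gave -1.28 ± 0.39 in WT (adjusted p 0.0167, edgeR 0.104) and -1.59 ± 0.39 in TDG iKO (0.0013, edgeR 0.0548). The WT call was lost without replicate 2 at 0 h or either library at 6 h (adjusted p 0.135 to 0.312), and that of TDG iKO without replicate 2 at 0 h (0.191) or replicate 1 at 6 h (0.0634).

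Cebpb, the stimulus-induced C/EBP factor, had normalised counts in the Tet cohort of 1221 and 1287 in WT at 0 h, 1695 and 1960.3 in TET iTKO at 0 h, 3244 and 3565 in WT at 6 h and 3125 and 3632 in TET iTKO at 6 h. Counts of the Tdg cohort were 641 and 2613 in WT at 0 h, 704 and 1631 in TDG iKO at 0 h, 3024 and 4657 in WT at 6 h and 1902 and 4526 in TDG iKO at 6 h. Replicate 2 was above replicate 1 in every Tdg group. It rose in the Tet cohort by a log2 fold change of 1.45 ± 0.12 in WT and 0.89 ± 0.12 in TET iTKO (DESeq2 adjusted p 2.15e-30 and 7.48e-12). The Tdg cohort had values of 1.24 ± 0.65 and 1.47 ± 0.65 (adjusted p 0.27 and 0.206). The WT value was 0.54 (0.614) without replicate 1 at 0 h and 2.60 (0.00359) without replicate 2. With the replicate number as a block Cebpb was called in both, at 1.52 in WT (adjusted p 4.27e-05) and 1.46 in TDG iKO (0.000101).

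Of the 2 receptors, Csf1r rose in the Tet cohort and Mertk, a receptor tyrosine kinase for the uptake of apoptotic cells, fell. Csf1r in the Tet cohort had normalised counts of 19381 and 19712 in WT at 0 h, 21169 and 23186 in TET iTKO at 0 h, 26098 and 26059 in WT at 6 h and 27638 and 29473 in TET iTKO at 6 h. The 6 h libraries lay above the 0 h libraries of each genotype, with a log2 fold change of 0.42 ± 0.092 in WT and 0.37 ± 0.092 in TET iTKO (DESeq2 adjusted p 4.19e-05 and 0.000574, without TET iTKO replicate 1 at 0 h 0.0507). In the Tdg cohort the normalised counts of Csf1r were 26081 and 15992 in WT at 0 h, 24704 and 25527 in TDG iKO at 0 h, 33041 and 31182 in WT at 6 h and 30092 and 28541 in TDG iKO at 6 h, and without WT replicate 1 at 0 h, which leaves the shallow library, the WT value went from 0.61 on the log2 scale (adjusted p 0.223) to 0.985 (0.000365). Without the shallow replicate 2 it was 0.32 (0.535).

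Mertk in the Tet cohort had normalised counts of 2601 and 2512 in WT at 0 h, 1896 and 1485 in TET iTKO at 0 h, 968 and 1131 in WT at 6 h and 606 and 377 in TET iTKO at 6 h. All 6 h libraries were lower than the 0 h libraries of their genotype, and the log2 fold change was -1.28 ± 0.18 in WT and -1.78 ± 0.19 in TET iTKO (DESeq2 adjusted p 5.99e-11 and 4.35e-20). Mertk in the Tdg cohort had 1192 and 350.2 in WT at 0 h, 897 and 1608 in TDG iKO at 0 h, 351 and 333 in WT at 6 h and 321 and 359 in TDG iKO at 6 h. In that cohort WT replicate 2 at 0 h was already at the 6 h level. TDG iKO was called at -1.87 ± 0.53 (adjusted p 0.00788, edgeR 0.139) and WT was not at -1.17 ± 0.53 (0.175), but without WT replicate 2 at 0 h the WT value was −1.79 (0.00189), and without replicate 1 it was −0.055 (0.951). The TDG iKO call was lost without replicate 2 at 0 h (0.331) or either library at 6 h (0.0876 and 0.0708).

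Emr1 had normalised counts in the Tet cohort of 40568 and 37363 in WT at 0 h, 42587 and 45640.1 in TET iTKO at 0 h, 55227 and 55653 in WT at 6 h and 60061 and 58663 in TET iTKO at 6 h, with each 6 h group above its 0 h group. It rose by 0.52 ± 0.093 in WT and 0.43 ± 0.093 in TET iTKO on the log2 scale (DESeq2 adjusted p 3.52e-07 and 3.71e-05). Emr1 in the Tdg cohort had 55267 and 25801 in WT at 0 h, 49283 and 43426 in TDG iKO at 0 h, 66667 and 60801 in WT at 6 h and 65622 and 59114 in TDG iKO at 6 h. Without WT replicate 1 at 0 h its WT log2 fold change went from 0.66 (adjusted p 0.314) to 1.28 (2.08e-05), and without the shallow replicate 2 it was 0.22 (0.753).

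Itgam, Cd68 and Lyz2 were not called after KLA in any group. Lyz2 had log2 fold changes of -0.091 in WT and 0.21 in TDG iKO of the Tdg cohort, and of 0.066 in WT (95% interval -0.11 to 0.24) and -0.01 in TET iTKO (-0.19 to 0.16) of the Tet cohort. Itgam in WT of the Tdg cohort went from 0.31 to 0.85 (adjusted p 0.0215) without replicate 1 at 0 h and to −0.088 (0.934) without the shallow replicate 2. In the Tet cohort the deposited names of the 0 h and 6 h libraries share an identifying number, a different one for each replicate and genotype, whose meaning is not given in the sources used here. With that number as a replicate block, Cd68 was also called in WT (log2 fold change −0.26, adjusted p 0.00138) and in TET iTKO (−0.27, 0.00105), and Itgam in TET iTKO (−0.22, 0.00773).

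**Figure D3:**
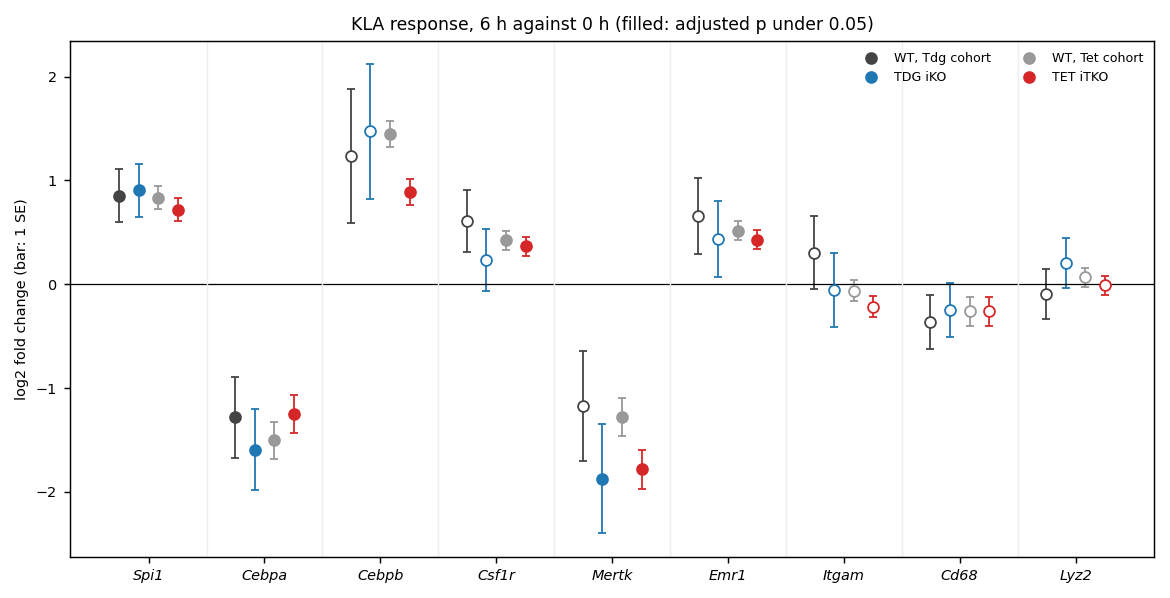
Log2 fold change of 6 h against 0 h of KLA, with bars of 1 SE, for each macrophage identity gene in the 4 genotype groups. Filled points have a DESeq2 adjusted p under 0.05. Spi1, Cebpb, Csf1r and Emr1 lie above 0 and Cebpa and Mertk below 0 in all 4 groups, and the bars of the Tdg cohort are wider.

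Genes working with these receptors and factors also changed. In WT of the Tet cohort, 5 of 9 tested genes of CSF1 receptor and growth factor signalling rose and 0 fell, where 13.1% of all genes tested rose and 11.1% fell (median log2 fold change 0.28, against −0.0074 over all genes), with Csf3r, the G-CSF receptor, at 1.56 ± 0.13. Among other myeloid transcription factors 7 of 17 rose and 4 fell, and Cebpd, another C/EBP factor, rose by 2.40 ± 0.22. For apoptotic cell uptake 1 of 15 rose and 8 fell (median −0.43), with Gas6, a ligand of Mertk, at -1.78 ± 0.15 and Itgb5 at -1.81 ± 0.13. Of the integrin and adhesion list 5 of 10 rose and 0 fell, with Icam1, the ligand of several leukocyte integrins, at 2.84 ± 0.13. Of 23 surface receptors and lysosomal proteins 3 rose and 8 fell, with Fcgr2b at 1.72 ± 0.12 and Mrc1, the mannose receptor, at -1.58 ± 0.19. Each gene named here was past the threshold of both DESeq2 and edgeR, while the counts are those of DESeq2, and edgeR called 3, 10, 9, 5 and 9 genes of the 5 lists in the order given.

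Lower in TET iTKO than in WT at both times were 4 members. At 0 h DESeq2 called 6 of the 9 members between TET iTKO and WT, 2 higher and 4 lower, where 7.5% of all genes tested were called, 4.38% higher and 3.12% lower. Cebpa, Mertk, Cd68 and Lyz2 fell, and Cebpb and Itgam rose. At 6 h the 4 lower ones were called again and no member was called higher, against 6.58% of genes called and 3.34% lower. edgeR called 4 members at each time, where it called 6.01% and 4.68% of genes, and not Mertk or Itgam at 0 h.

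Cebpa in TET iTKO was at 0.445 of the WT level at 0 h and 0.531 at 6 h, and its libraries of the 2 genotypes did not overlap at either time. Overlap was also absent for 8 of the 9 members at 0 h and 7 at 6 h, among them Csf1r and Emr1, which were not called. Such separation of 2 against 2 libraries is description only, and its share over all genes is not given here. The log2 fold change was -1.17 ± 0.18 (DESeq2 adjusted p 4.55e-09, edgeR 0.0026) and -0.91 ± 0.19 (5.99e-05, edgeR 0.0153). Of the 6 members called at 0 h it was the one that stayed called when any single library of the compared groups was left out.

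Cd68 in the Tet cohort had normalised counts of 25387 and 28444 in WT at 0 h, 18914 and 15872 in TET iTKO at 0 h, 20697 and 24050.2 in WT at 6 h and 16389.9 and 12624 in TET iTKO at 6 h. All TET iTKO libraries were below all WT libraries of the same time, with a log2 fold change of -0.63 ± 0.14 at 0 h (DESeq2 adjusted p 0.000274, edgeR 0.033) and -0.63 ± 0.14 at 6 h (0.000345, edgeR 0.0372). Lyz2 had 263529 and 251180.3 in WT at 0 h, 196605 and 191301 in TET iTKO at 0 h, 274891 and 260951 in WT at 6 h and 193346 and 191426 in TET iTKO at 6 h. It was lower in TET iTKO, with a log2 fold change of -0.41 ± 0.089 at 0 h (DESeq2 adjusted p 0.000216, edgeR 0.00545) and -0.48 ± 0.089 at 6 h (6.3e-06, edgeR 0.00377), and WT and TET iTKO did not overlap. Mertk changed by -0.60 ± 0.18 at 0 h (DESeq2 adjusted p 0.0198, edgeR 0.0999) and -1.10 ± 0.19 at 6 h (5.6e-07, edgeR 0.0151), also with no overlap.

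Cebpb was higher in TET iTKO at 0 h by 0.54 ± 0.12 (DESeq2 adjusted p 0.000409, edgeR 0.0166) and was at -0.017 ± 0.12 at 6 h, where the libraries overlapped. Its increase after KLA was 1.45 in WT and 0.89 in TET iTKO on the log2 scale, a difference of -0.56 ± 0.17. That difference was not called (DESeq2 adjusted p 0.167, edgeR 0.433), while with the shared identifying number as a replicate block it was (adjusted p 0.00155). No other member was called when the KLA responses of TET iTKO and WT were compared, where 0.426% of genes were called.

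Itgam had normalised counts in the Tet cohort of 16772 and 15372 in WT at 0 h, 19128 and 20407 in TET iTKO at 0 h, 15753 and 14902 in WT at 6 h and 16270.4 and 17731 in TET iTKO at 6 h, with TET iTKO above WT at both times. The log2 fold change was 0.30 ± 0.098 at 0 h (DESeq2 adjusted p 0.0353, edgeR 0.0964) and 0.14 ± 0.098 at 6 h (0.541). Spi1, Csf1r and Emr1 were not called, with 95% intervals at 0 h of -0.084 to 0.35, 0.0015 to 0.36 and -0.0029 to 0.36 on the log2 scale.

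The calls at 0 h depended on single libraries. Without TET iTKO replicate 2 only 1 member was called, Cebpa, without WT replicate 1 there were 2, without WT replicate 2 there were 3 and without TET iTKO replicate 1 there were 5. At 6 h the number was 3 or 4, with Mertk lost without either WT library (adjusted p 0.0503 and 0.139) and Cd68 without TET iTKO replicate 2 (0.0938). All fold changes of the called members kept their sign. Markers of some other cell types moved with the genotype. The summed normalised count of 9 neutrophil markers was 3580 to 4898 in TET iTKO and 2229 to 2258 in WT at 0 h, and 2803 to 3301 and 1482 to 1799 at 6 h. DESeq2 called 4 of 8 tested markers higher at each time, where 4.38% and 3.24% of all genes were, and edgeR called 4 and 3. S100a8, S100a9, Elane, Mmp8 and Mpo had counts in every BMDM library, S100a8 rose in TET iTKO by 1.19 at 0 h and 0.90 at 6 h on the log2 scale, and Camp, Ngp, Ltf and Retnlg were at 0 in at least 1 BMDM library. The sums of 5 B cell markers were 78.9 to 299.6 in TET iTKO and 20.8 to 26.9 in WT at 0 h, and of 6 progenitor markers 94.3 to 366 and 39.5 to 68.3. Of those tested at 0 h, 3 of 5 B cell and 1 of 4 progenitor markers were called higher. Dendritic cell sums were 23.6 to 63 and 5.39 to 6.5. The genotypes overlapped at 0 h in the sums of T cell markers (265 to 306 in TET iTKO, 251 to 395 in WT) and of stromal markers (38.4 to 90.2 and 57.5 to 65.7), with 0 called in either. At 6 h the T cell sums still overlapped. Stromal sums were 164 to 269 in TET iTKO and 43.7 to 49.3 in WT, with 1 of 4 tested markers called higher. B cell sums at 6 h were 58.3 to 285 and 25.3 to 38.2. Progenitor sums were 118 to 320 and 40 to 44.6, and dendritic cell sums 23.5 to 66.1 and 5.24 to 6.51. DESeq2 called 1 of 5 B cell, 2 of 4 progenitor and 1 of 1 dendritic cell markers higher at 6 h, and edgeR called 0 of these. The part of all these markers is considered together. Their part in the results was not tested.

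**Figure D4:**
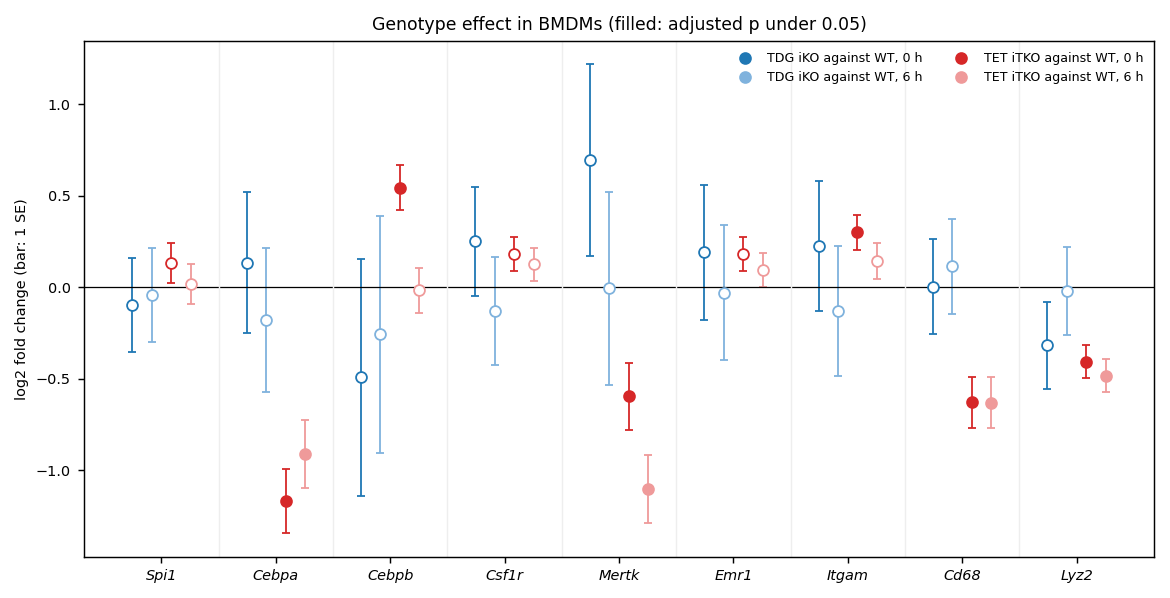
Log2 fold change of knockout against WT of the same cohort and time, with bars of 1 SE, for each macrophage identity gene. Filled points have a DESeq2 adjusted p under 0.05. Cebpa, Mertk, Cd68 and Lyz2 lie below 0 in TET iTKO at both times, Cebpb and Itgam lie above 0 at 0 h, and no point of TDG iKO is filled.

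Other genes of the same pathways changed in TET iTKO at 0 h. Of 23 tested surface receptors and lysosomal proteins 10 fell and 2 rose, where 3.12% of all genes fell and 4.38% rose (median log2 fold change −0.31, against 0.0083 over all genes), with C1qa, a complement component made by macrophages, at -1.16 ± 0.12. The 2 that rose were the chemokine receptors Cx3cr1 at 4.45 ± 0.54 and Ccr2 at 2.47 ± 0.63, which mark monocytes among other cells. For apoptotic cell uptake 3 of 15 fell and 1 rose. Gas6 fell, at -1.30 ± 0.15, as did Mfge8, a bridging protein to apoptotic cells, at -0.95 ± 0.15, whereas Axl, a receptor related to Mertk, rose by 1.60 ± 0.45. Among other myeloid transcription factors 5 of 18 rose and 1 fell, with Spic at 1.71 ± 0.28, Cebpd at 1.00 ± 0.22 and Bhlhe41 at -1.14 ± 0.19. In the integrin and adhesion list 4 of 10 rose, Itgb7 by 1.43 ± 0.18 and Vcam1 by 1.39 ± 0.25. In CSF1 receptor and growth factor signalling, 2 of 9 rose and 1 fell, and this was Csf2ra, the GM-CSF receptor α chain, at -0.55 ± 0.13. The 2 that rose were the paralogs Csf2rb and Csf2rb2, which can share reads. These counts are those of DESeq2, and edgeR called 11, 4, 4, 2 and 3 genes of the lists in the order given. At 6 h the surface and lysosomal list had 13 of 23 lower and 2 higher by DESeq2, and the uptake list had 4 of 14 lower and 1 higher. Of all genes 3.34% were lower and 3.24% higher, and edgeR called 13 and 4 genes of these lists.

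No member was called between TDG iKO and WT at 0 h or at 6 h. By DESeq2 and by edgeR 0 genes were called in all at either time (0% of those tested), and without adjustment 265 and 34 genes had p under 0.05 by DESeq2 and 125 and 27 by edgeR. Intervals were wide. At 0 h the log2 fold change of Cebpa was 0.14 (95% interval -0.62 to 0.89), that of Spi1 -0.095 (-0.60 to 0.41) and that of Mertk 0.69 (-0.34 to 1.72). At 6 h they were -0.18 (-0.95 to 0.59), -0.041 (-0.54 to 0.46) and -0.0067 (-1.04 to 1.03). The intervals at 0 h were -0.79 to 0.15 for Lyz2 and -0.50 to 0.51 for Cd68. The difference between the 2 losses has its own test, given below.

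The values at 0 h depended on which WT library was used. Without WT replicate 1, in a fit with the shallow replicate 2 as the only WT library at 0 h and the spread taken from the other groups, Mertk (log2 fold change 1.81, DESeq2 adjusted p 0.00323) and Emr1 (0.82, 0.0211) were called higher in TDG iKO, along with 1177 genes in all. Without WT replicate 2, no member was called, with Mertk at 0.092 and Emr1 at −0.24. Cd68 had normalised counts in the Tdg cohort of 27154 and 23499 in WT at 0 h, 23633 and 27343 in TDG iKO at 0 h, 19073 and 20294 in WT at 6 h and 18905 and 23649.5 in TDG iKO at 6 h. Itgam had 26301 and 13439.7 in WT at 0 h, 24503 and 22146 in TDG iKO at 0 h, 25949 and 23054 in WT at 6 h and 24899 and 19817 in TDG iKO at 6 h. Lyz2 had 235205 and 227102 in WT at 0 h, 185778 and 186915 in TDG iKO at 0 h, 243545 and 191018 in WT at 6 h and 218090.5 and 209870.4 in TDG iKO at 6 h, and at 0 h its 2 WT libraries were above its 2 TDG iKO libraries, with a log2 fold change of -0.32 ± 0.24 that was not called. The summed neutrophil markers varied from 916 to 7018 between the 2 TDG iKO libraries at 0 h and from 1142 to 2488 between the 2 WT libraries. Their part in these values was not tested.

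With all libraries of the Tdg cohort, the KLA responses of TDG iKO and WT did not differ by a call in any member or any gene (0% of genes called by DESeq2 and edgeR, with 37 and 24 genes at an unadjusted p under 0.05). The difference depended on single libraries. When each was left out in turn, it ranged on the log2 scale from -1.82 to -0.096 for Mertk and from -1.14 to 0.96 for Cebpb. The effects of the 2 losses were set against each other in a fit of all 16 BMDM libraries, the shallow one included. That fit was not repeated without single libraries. No member was called at 0 h, where 0.355% of genes were, or at 6 h, where 0.0765% were. Cebpa had the largest difference at 0 h, -1.30 ± 0.43 on the log2 scale (95% interval -2.15 to -0.45, DESeq2 adjusted p 0.283, edgeR 0.772). For Mertk it was -1.29 ± 0.62 (-2.50 to -0.069) and for Cd68 -0.63 ± 0.28 (-1.17 to -0.078). With the replicate number as a block Cebpa was called (−1.29, adjusted p 0.0206). That block joins WT and knockout libraries of a cohort by number alone. At 0 h the deviations of such pairs correlated at 0.022 in the Tet cohort and 0.34 in the Tdg cohort. For Mertk, Cd68 and Lyz2 no call of the difference was made at either time, with or without the block, and Cebpa was called only with it. Passing the threshold in TET iTKO and not in TDG iKO therefore does not show that the 2 losses differed in these members.

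Across the 16 BMDM libraries, with each cohort centred on its mean, the members fell into opposing sets. These correlations of log2 normalised counts are a description over libraries that share cohort and treatment. Csf1r and Emr1 followed each other closely (Pearson r 0.97), and Cebpa followed Mertk (0.85) and Cd68 (0.82). Spi1 rose with Cebpb (0.88) and ran against Cebpa (−0.84) and Mertk (−0.86). Lyz2 was the least tied to any other member, its highest r being 0.55 with Cd68. Among 9521 genes, those most like Spi1 were Adora2a (0.99), an adenosine receptor gene, and Ptges (0.99), a prostaglandin E synthase. Those most like Cebpa were Rab11fip5 (0.98) and Sh2d3c (0.98), those most like Cebpb Znrf1 (0.97) and Snx20 (0.97), and those most like Mertk Nr1d2 (0.97) and Slc6a6 (0.97). Csf1r was nearest to Srpr (0.98) and Rap1gds1 (0.97), Emr1 to Stag1 (0.98) and Rap1gds1 (0.98), and Itgam to Ceacam1 (0.95) and Ddx19a (0.94). Cd68 was nearest to the lysosomal protease gene Ctsb (0.97) and to Bhlhe41 (0.94), and Lyz2 to Zdhhc20 (0.85) and C1qa (0.85).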

How the data were processed

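The deposited values were raw counts per gene, which the authors made with HTSeq from reads that HISAT2 aligned to mm9; the annotation, strand setting and tool versions are not given in the sources used here. The 5 tallies of unassigned reads (32.8% to 51.6% of each library) were left out. Normalised counts used median-of-ratios size factors over the 24 libraries. Exon lengths came from GENCODE vM1. Tests used DESeq2 1.42.0 (Wald test, adjusted p threshold 0.05) in R 4.3.3, as the study used DESeq2, on the 8 BMDM libraries of each cohort, on all 16 for the difference between TET and TDG effects, and on 8 for each Th2 comparison; edgeR 4.0.16 was the alternative. On simulated counts both tools recovered sizes and directions, but the share of false calls was above the threshold for DESeq2 in every comparison simulated and for edgeR in some, so the adjusted p of edgeR is printed where the tools differ on a member. Other settings were TMM, a filter of 10 counts in 2 libraries, replicate blocks and leaving out each library. Members and gene lists were chosen with earlier results of these data known. Genes named from each list were the up to 3 called with the largest change and a mean of at least 50, and fewer are printed here. Same-numbered 0 h and 6 h libraries had correlated deviations from their group means in the Tet cohort, where deposited names also share an identifying number (0.51 and 0.45), and in the Tdg cohort (0.36 in WT and 0.81 in TDG iKO). Between same-numbered WT and TET iTKO libraries the correlation was 0.022 at 0 h and 0.058 at 6 h. Between WT and TDG iKO libraries it was 0.34 and 0.81. In Th2 cells every same-numbered pair correlated (0.68 to 0.90).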

Additional observations from a re-analysis of the deposited data

Results flagged for a closer look

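For 3 genes, each in 1 Th2 genotype of 4 libraries, 1 library was far from the others by Dixon's criterion. These were a normalised count of 0.539 for Spi1 in WT, 1.19 for Cebpa in WT and 0.715 for Lyz2 in TDG iKO. In each the other libraries were at 0, and the value stood for 1 to 3 counts. Any value above 0 meets the criterion when the others are at 0, so its usual rate of about 1 in 20 groups does not hold here.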

How the results depend on the processing

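Depth and the spread of the Tdg cohort limit most of these results. In the KLA comparisons of that cohort, members called went from 2 in WT to 0 with edgeR, 5 with the replicate block nested in genotype, 1 with only the 4 libraries compared and 0 to 5 without single libraries, and from 3 in TDG iKO to 0 with edgeR and 0 to 2 without single libraries. Those libraries share only a number, with 2 pairs. For the change of the KLA response by TET loss the count went from 0 to 1 with either replicate block (Cebpb, adjusted p 0.0269 with the plain block) and 0 to 1 without single libraries, for the TET against the TDG effect at 0 h to 1 with the replicate block (Cebpa, −1.29, adjusted p 0.0206), for the TDG effect at 0 h 0 to 2 and for the TET effect at 0 h 1 to 5 without single libraries. No value for a replicate block turned a called member around, and the block changed no call of a member in Th2 cells, where genes called went from 2 to 87. The cause was not tested. Signs turned for uncalled values near 0: the TDG effect on Cd68 at 0 h (-0.00221 with the filter, -0.00566 with the block, -0.0019 with only 4 libraries), the change by TDG loss for Cebpb (−0.056 and −0.069 with the 2 blocks) and that by TET loss for Cd68 (0.00191 with TMM). Without single libraries, these uncalled log2 values ranged across 0. The change of the KLA response by TDG loss ranged for Cd68 -0.0644 to 0.28, for Cebpa -0.67 to 0.17, for Cebpb -1.14 to 0.96, for Emr1 -0.85 to 0.21, for Itgam -0.90 to 0.0286, for Spi1 -0.13 to 0.22. Its change by TET loss ranged for Cd68 -0.22 to 0.18. The KLA response in TDG iKO ranged for Itgam -0.22 to 0.10. That in TET iTKO ranged for Lyz2 -0.0386 to 0.0163. That in WT of the Tdg cohort ranged for Itgam -0.0876 to 0.85, for Lyz2 -0.26 to 0.0627. That in WT of the Tet cohort ranged for Itgam -0.12 to 0.00493. The TDG effect at 0 h ranged for Cd68 -0.0993 to 0.10, for Cebpa -0.34 to 0.49, for Cebpb -1.21 to 0.89, for Csf1r -0.0382 to 0.62, for Emr1 -0.24 to 0.82, for Itgam -0.16 to 0.77, for Spi1 -0.26 to 0.0947. The TDG effect at 6 h ranged for Cd68 -0.0597 to 0.27, for Cebpb -1.02 to 0.24, for Emr1 -0.0998 to 0.0417, for Itgam -0.30 to 0.023, for Lyz2 -0.17 to 0.15, for Mertk -0.0934 to 0.0779, for Spi1 -0.12 to 0.0399. The TDG effect in Th2 cells ranged for Cd68 -0.27 to 0.25, for Cebpb -0.12 to 0.0700, for Emr1 -0.59 to 0.10, for Itgam -0.71 to 0.0748. The TET effect at 6 h ranged for Cebpb -0.12 to 0.076, for Spi1 -0.0568 to 0.0834.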
